A study of Mus musculus with 12 samples.

Results

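Parvalbumin fast-spiking interneurons are inhibitory neurons of the cortex, and the 8 genes described here are genes of that cell class: Pvalb, Syt2, Kcnc1, Kcnc2, Nefh, Nxph1, Lhx6 and Erbb4. They are 8 of the 24411 genes in a count table of bulk RNA, taken from mouse medial prefrontal cortex (females, 8 to 12 weeks of age), and all 8 were among the 15199 genes with enough counts to be tested. The members were chosen by name, with earlier results of these data known. Pvalb was chosen by its measured level, which was higher in stressed than in unstressed wild-type mice, so that difference is described below and not tested. The 12 libraries fall into 4 groups of 3. Unstressed WT and stressed WT mice were C57BL/6J animals bought from a breeder, and unstressed KO and stressed KO mice lack Cav3.1, the T-type calcium channel encoded by Cacna1g, on a C57BL/6J background and came from a bioresource centre, so that genotype and colony of origin cannot be told apart. Stressed mice had a forced swim test or a tail suspension test each day for 5 days; unstressed mice had neither. Whether the libraries within a group stand for different animals is not in the labels, so every p-value below measures the spread between these libraries, which may in part be technical.

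As background, parvalbumin cells are born in the medial ganglionic eminence of the embryo under control of the transcription factor Lhx6, settle in the cortex, and inhibit pyramidal cells at and near the cell body. They fire brief action potentials at high rates because Kv3 potassium channels, whose subunits Kcnc1 and Kcnc2 encode, repolarise the membrane quickly. Their terminals release GABA through the fast calcium sensor Syt2, their cytosol is buffered by the calcium-binding protein that Pvalb encodes, and their myelinated axons hold the heavy neurofilament subunit made from Nefh. Nxph1 encodes a secreted ligand of neurexins, and Erbb4 encodes the receptor for neuregulins that guides the formation of synapses onto these cells. Of the 8 genes Pvalb is the most specific to the class, whereas Lhx6 also marks somatostatin interneurons and Kcnc1, Kcnc2 and Nefh are also made by other neurons.

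Several libraries stood apart before any comparison was made. Library totals ran from 15469590 to 31082240 estimated counts. Levels are given as CPM, the count scaled to the size of its library. Cacna1g, the targeted gene, was at 133, 144 and 135 CPM in WT mice without stress and at 128, 110 and 109 CPM in those with it. In KO mice it was at 65.1, 54.6 and 61.7 CPM without stress and at 58.5, 66.0 and 57.6 CPM with it. Every KO library was below every WT library, and none was near 0. The summed level of 12 olfactory bulb markers was 1355 and 1316 CPM in libraries 1 and 2 of unstressed WT, against 61.7 to 236 CPM in the other 10 libraries, among them 205 CPM in unstressed WT library 3; the highest of these markers were Cdhr1 and Tshz1. The same pair of libraries held 300 and 353 CPM of 11 meningeal and fibroblast markers (led by Igf2 and Col1a2) against 46.6 to 136 CPM elsewhere, and 2880 and 2456 CPM of 12 genes shared by all inhibitory neurons against 1002 to 1380 CPM elsewhere. Stressed KO library 1 held 917 CPM of 10 striatal neuron markers (led by Pde10a and Ppp1r1b) against 250 to 312 CPM elsewhere. The 10 oligodendrocyte markers (Mbp among the highest) summed to 1940, 2096 and 3371 CPM in stressed WT and to 2798 CPM in stressed KO library 1, against 1250 to 1687 CPM in the other 8 libraries. No marker of these lists was at 0 in all 3 libraries of a group. The markers of the labelled tissue were present, with 12 cortical excitatory neuron markers (led by Camk2a and Slc17a7) at 4180, 4757 and 6306 CPM in unstressed WT and at 4987 to 6659 CPM in the other groups.

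Per kilobase of exon, the 8 genes covered a wide range of levels. Averaged over the 12 libraries, Kcnc1 stood at 20.8 CPM per kilobase and Pvalb at 19.1, followed by Kcnc2 at 14.5 and Nefh at 12.5. Nxph1 stood at 7.02, Lhx6 at 3.83, Erbb4 at 1.55 and Syt2 at 1.26 CPM per kilobase. Among single libraries the highest CPM was 3.69 times the lowest for Pvalb, 5.09 times for Syt2, 3.38 times for Erbb4 and 3.14 times for Lhx6. It was 1.82 times the lowest for Kcnc2, 1.74 times for Nefh, 1.70 times for Kcnc1 and 1.62 times for Nxph1. Unstressed WT library 1 was the lowest of all 12 libraries for 4 of the 8 genes (Pvalb, Syt2, Kcnc2 and Lhx6), and stressed WT library 3 was the highest for 4 (Pvalb, Syt2, Nefh and Lhx6). The label of a single cell class did not describe how the genes varied: Kcnc1 and Nxph1 were highest in unstressed WT library 2, where Pvalb and Lhx6 were near their lowest. In bulk RNA, fewer cells of a type and less RNA per cell cannot be told apart for any value given here.

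**Figure D1:**
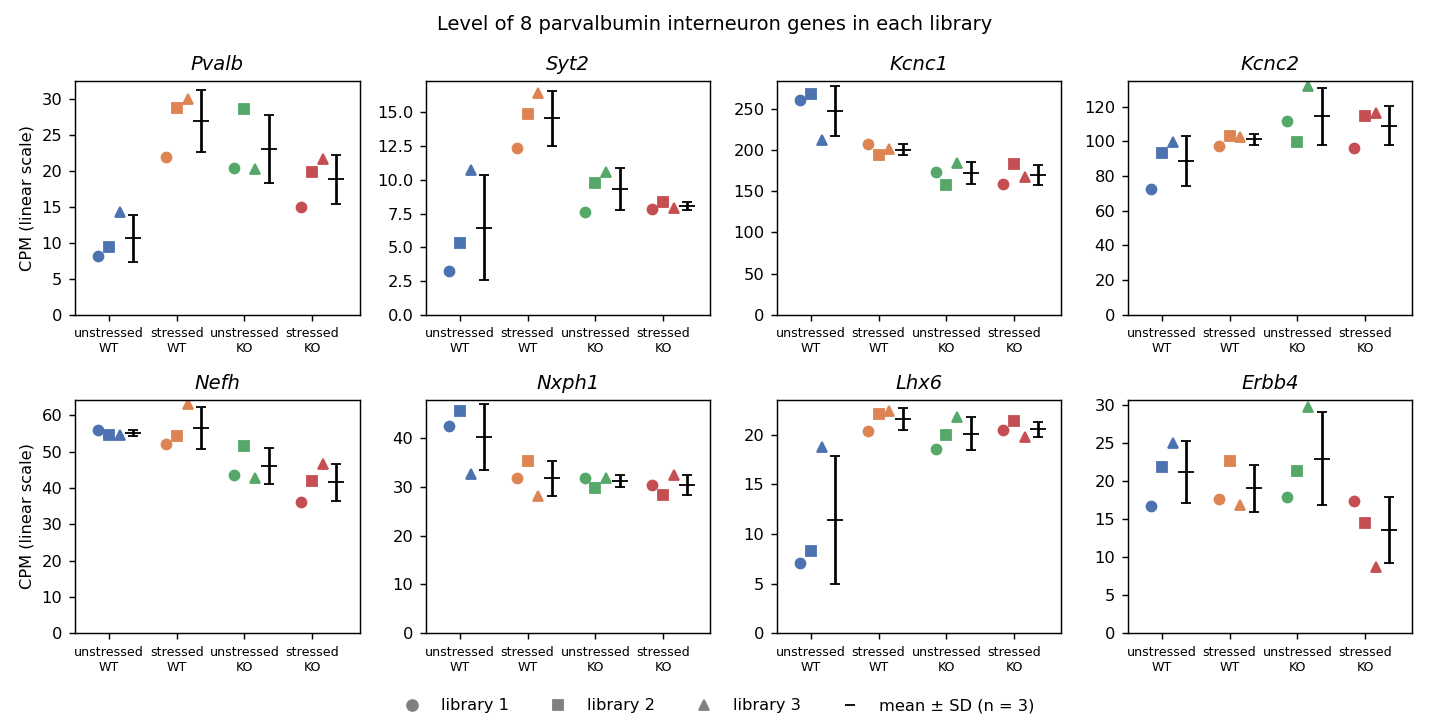
CPM of each of the 8 genes on a linear axis, with 1 point per library (circle, square and triangle for libraries 1, 2 and 3) and the mean ± SD of each group of 3 beside the points. Pvalb, Syt2 and Lhx6 are lowest in unstressed WT libraries 1 and 2, Kcnc1 and Nxph1 are highest there, and Nefh in both KO groups lies below all WT libraries.

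Pvalb (chr15:78191114-78206400, minus strand, GRCm38), the calcium buffer of the class, was at 8.15, 9.41 and 14.3 CPM in unstressed WT (mean 10.6 ± 3.23, SD, n = 3) and at 22.0, 28.8 and 30.1 CPM in stressed WT (26.9 ± 4.37). In KO mice it was at 20.4, 28.6 and 20.3 CPM without stress (23.1 ± 4.76) and at 15.0, 19.8 and 21.7 CPM with stress (18.9 ± 3.44). Unstressed WT was thus the low group, with all 3 libraries below the other 9, while the neighbours stressed KO and unstressed KO overlapped, as did unstressed KO and stressed WT. The counts behind these levels were 237 to 881 per library.

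Syt2 (chr1:134646677-134762593, plus strand), the fast calcium sensor for vesicle release, was at 3.23, 5.33 and 10.8 CPM in unstressed WT (6.44 ± 3.88) and at 12.3, 14.9 and 16.4 CPM in stressed WT (14.5 ± 2.07). It was at 7.63, 9.76 and 10.6 CPM in unstressed KO (9.33 ± 1.54) and at 7.87, 8.39 and 7.94 CPM in stressed KO (8.07 ± 0.282). Stressed WT was the high group, and its libraries did not overlap with those of any other group. Syt2 lies across Ppp1r12b on the other strand; the library kit kept strand, but whether the counting used it is not given in the sources used here, so that reads of the pair may be mixed.

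Lhx6 (chr2:36081953-36105408, minus strand), the transcription factor of the lineage, was at 7.12, 8.28 and 18.8 CPM in unstressed WT (11.4 ± 6.42), whereas stressed WT libraries held 20.3, 22.0 and 22.4 CPM (21.6 ± 1.08). KO libraries held 18.6, 19.9 and 21.8 CPM without stress (20.1 ± 1.63), and with it 20.5, 21.4 and 19.8 CPM (20.5 ± 0.787). Only unstressed WT libraries 1 and 2 lay apart, and the other 10 ran from 18.6 to 22.4 CPM. Each group overlapped with its neighbour in the order of means.

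The promoters of Pvalb, Syt2 and Lhx6 are shown because these 3 genes were low together in the same pair of libraries. Kcnc2 was also lowest in that pair, at 72.5 and 93.4 CPM, but its range over the libraries was narrower. Whether any of these genes share regulation was not tested. The windows run from 250 bases before to 50 bases after the RefSeq transcript start nearest to the gene's start, on the gene's own strand and in build GRCm38.p6; 7 of the 8 genes were in the RefSeq promoter table, and Nefh was not. Capitals mark matches to an AP-1 site (TGANTCA), a cAMP response element core (TGACG), an E-box (CACGTG) or a TATA box (TATAAA), each searched on both strands with overlaps allowed.
Pvalb, chr15:78206351-78206650, minus strand: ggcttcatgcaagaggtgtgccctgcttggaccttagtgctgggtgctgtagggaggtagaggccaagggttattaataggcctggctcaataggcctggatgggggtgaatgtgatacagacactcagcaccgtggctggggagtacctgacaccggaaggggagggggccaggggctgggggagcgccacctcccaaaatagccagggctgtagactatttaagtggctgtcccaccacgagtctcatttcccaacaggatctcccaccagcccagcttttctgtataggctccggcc
Syt2, chr1:134646362-134646661, plus strand: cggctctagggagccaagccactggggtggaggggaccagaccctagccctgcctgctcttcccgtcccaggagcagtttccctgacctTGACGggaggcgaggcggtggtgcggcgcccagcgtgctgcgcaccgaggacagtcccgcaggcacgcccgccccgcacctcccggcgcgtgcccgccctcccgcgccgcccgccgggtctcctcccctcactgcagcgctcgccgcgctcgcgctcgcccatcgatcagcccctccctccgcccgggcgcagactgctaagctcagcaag
Lhx6, chr2:36105359-36105658, minus strand: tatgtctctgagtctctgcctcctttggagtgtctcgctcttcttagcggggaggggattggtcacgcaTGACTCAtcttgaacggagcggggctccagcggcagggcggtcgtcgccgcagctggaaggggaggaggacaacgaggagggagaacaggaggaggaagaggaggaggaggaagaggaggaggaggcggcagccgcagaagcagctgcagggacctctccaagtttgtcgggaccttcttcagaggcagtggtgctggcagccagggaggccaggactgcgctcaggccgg
The Pvalb window held none of the 4 motifs, the Syt2 window held 1 cAMP response element core and the Lhx6 window held 1 AP-1 site. No motif was thus shared by these 3 windows. The promoter table held 2 windows for Pvalb, 2 for Syt2 and 3 for Lhx6, and only the 1 shown was read for each gene. The cAMP response element core was in 20.8% of the 32851 promoters of the table, the AP-1 site in 7.81%, the TATA box in 13.6% and the E-box in 7.15%. Among the other 4 genes with a promoter, Kcnc1 held 1 cAMP response element core and Kcnc2, Nxph1 and Erbb4 held no match. The G and C content of the window was 58.3% for Pvalb, 74.3% for Syt2 and 63.3% for Lhx6.

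Kcnc1 (chr7:46396497-46438704, plus strand), which encodes the Kv3.1 channel subunit, was at 261, 268 and 212 CPM in unstressed WT (247 ± 30.5), whereas stressed WT libraries held 206, 194 and 201 CPM (200.2 ± 6.40). KO libraries held 174, 158 and 185 CPM without stress (172 ± 13.5), against 158, 183 and 167 CPM with it (169 ± 12.3). The 6 WT libraries lay above all 6 KO libraries, and unstressed WT lay above stressed WT without overlap. Kcnc2 (chr10:112271121-112467024, plus strand), which encodes the Kv3.2 subunit, went the other way in unstressed WT, at 72.5, 93.4 and 99.9 CPM (88.6 ± 14.3). With stress, WT libraries held 97.5, 103 and 103 CPM (101 ± 3.19). KO libraries held 112, 99.5 and 132 CPM without stress (114 ± 16.4), against 96.1, 115 and 117 CPM with it (109 ± 11.4). Neighbouring groups of Kcnc2 overlapped throughout.

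Nefh (chr11:4938754-4948064, minus strand), the heavy neurofilament, was at 56.1, 54.6 and 54.6 CPM in unstressed WT (55.1 ± 0.826) and at 52.0, 54.3 and 63.0 CPM in stressed WT (56.4 ± 5.78). It was at 43.5, 51.7 and 42.6 CPM in unstressed KO (45.9 ± 4.96) and at 36.2, 41.8 and 46.6 CPM in stressed KO (41.5 ± 5.18). All 6 KO libraries lay below all 6 WT libraries, and within a genotype the stressed and unstressed groups overlapped.

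Nxph1 (chr6:8948431-9249032, plus strand), the neurexin ligand, was at 42.4, 45.6 and 32.7 CPM in unstressed WT (40.2 ± 6.71), and in the other groups it had means of 31.7 ± 3.59 (stressed WT), 31.2 ± 1.20 (unstressed KO) and 30.3 ± 2.03 CPM (stressed KO). Libraries 1 and 2 of unstressed WT were again the ones apart, this time on the high side. Erbb4 (chr1:68032186-69108059, minus strand), the neuregulin receptor, was at 16.8, 21.9 and 25.0 CPM in unstressed WT (21.2 ± 4.13) and 17.7, 22.6 and 16.9 CPM in stressed WT (19.1 ± 3.14). It was at 17.9, 21.3 and 29.7 CPM in unstressed KO (23.0 ± 6.06) and 17.4, 14.6 and 8.77 CPM in stressed KO (13.6 ± 4.39). Stressed KO was the low group for Erbb4, with a low value of 8.77 CPM in library 3, and it overlapped with stressed WT but not with unstressed KO.

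**Figure D2:**
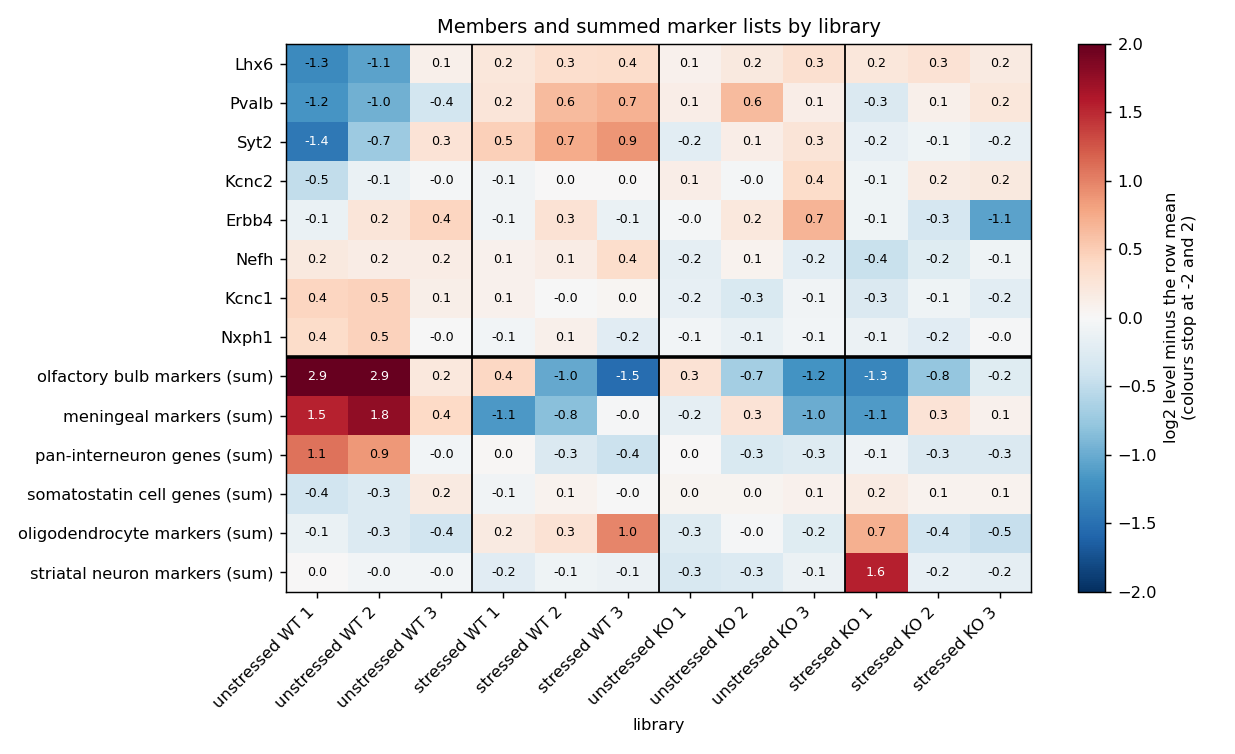
Log2 level minus the row's mean over the 12 libraries (columns), for the 8 genes above the thick line and, below it, for the summed CPM of 6 lists of other cell types; thin lines part the groups. Unstressed WT libraries 1 and 2 are low for Lhx6, Pvalb and Syt2 and high for Kcnc1, Nxph1, olfactory bulb, meningeal and pan-interneuron genes.

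In wild-type mice, stressed against unstressed, the 3 genes with the highest log2 differences were Pvalb, 1.34 ± 0.22 (SE, a 2.54-fold higher level), Syt2, 1.17 ± 0.32 (2.26-fold) and Lhx6, 0.92 ± 0.27 (1.89-fold). These values describe the contrast on which Pvalb was chosen, so the 8 genes were given no test in it. At an adjusted p under 0.05 in the edgeR quasi-likelihood test, 21.9% of all genes were called. The groups did not overlap for 4 of the 8 genes (Pvalb, Syt2 and Lhx6 higher, Kcnc1 lower) and for 36.6% of all genes, and nothing is read from that count. Kcnc1 had a log2 difference of -0.30 ± 0.10, Nxph1 of -0.34 ± 0.12, Erbb4 of -0.16 ± 0.24, Kcnc2 of 0.19 ± 0.13 and Nefh of 0.03 ± 0.10. Without unstressed WT libraries 1 and 2, which leaves 1 library in that group and assumes that it varies like the others, 0% of all genes were called. The log2 differences were then 0.92 ± 0.25 for Pvalb, 0.44 ± 0.20 for Syt2 and 0.20 ± 0.12 for Lhx6. Olfactory bulb, meningeal and oligodendrocyte markers moved with this contrast, at the levels given above, and their part in the differences was not tested.

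In KO mice the same stress was followed by no called change in any of the 8 genes. Pvalb had a log2 difference of -0.30 ± 0.22 between stressed and unstressed KO (95% interval -0.77 to 0.18, edgeR adjusted p = 0.698), and Syt2 one of -0.21 ± 0.32 (-0.91 to 0.49, adjusted p = 0.877). For Lhx6 it was 0.03 ± 0.27 (-0.55 to 0.61, adjusted p = 0.986). The channel subunits had narrow intervals, -0.23 to 0.19 for Kcnc1 around a difference of -0.02 ± 0.10 and -0.35 to 0.21 for Kcnc2 around -0.07 ± 0.13. Nefh differed by -0.15 ± 0.11 and Nxph1 by -0.04 ± 0.12, with adjusted p-values of 0.690 and 0.948. Erbb4 had the biggest difference of the 8, -0.74 ± 0.25 (a level 0.599 times that without stress, interval -1.28 to -0.20). Its unadjusted p was 0.0115 and its adjusted p 0.470, so it did not pass the test, although its 3 stressed libraries lay below its 3 unstressed ones. Among all genes tested 0.0197% were called in this contrast and 16.9% did not overlap, against 0 and 1 of the 8; DESeq2 also called 0 of the 8, and 1 of them had an unadjusted edgeR p under 0.05. Without stressed KO library 1, which held the striatal markers, Pvalb differed by -0.15 ± 0.23 and Erbb4 by -0.96 ± 0.27, and neither was called. Without stressed KO library 3, Erbb4 differed by -0.52 ± 0.23.

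The difference between the stress responses of KO and WT mice, in which the choice of Pvalb also has a share, was negative for 6 of the 8 genes, and these values too were not tested. It was -1.64 ± 0.31 on the log2 scale for Pvalb, -1.38 ± 0.45 for Syt2, -0.89 ± 0.38 for Lhx6 and -0.58 ± 0.35 for Erbb4. Kcnc1, at 0.28 ± 0.14, and Nxph1, at 0.30 ± 0.17, had the opposite sign, and Kcnc2 and Nefh had -0.26 ± 0.18 and -0.18 ± 0.15. Over all genes, the edgeR test called 0% for this difference. Before adjustment 4330 genes had a p under 0.05, and DESeq2 called 1865 genes. With libraries 1 and 2 of unstressed WT left out, the value was -1.21 ± 0.31 for Pvalb, -0.64 ± 0.25 for Syt2 and -0.17 ± 0.15 for Lhx6.

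Between unstressed KO and unstressed WT mice, Kcnc1 and Nxph1 were lower and Lhx6 was higher in KO. Kcnc1 fell by a log2 difference of -0.52 ± 0.10 (a level 0.697 times that of WT, adjusted p = 0.00983), Nxph1 by -0.37 ± 0.12 (adjusted p = 0.0444), and Lhx6 rose by 0.82 ± 0.27 (1.76-fold, adjusted p = 0.0471). Of the 7 genes tested here these 3 passed, where 23.2% of all genes did, and 3 of 7 (Kcnc1, Nxph1 and Nefh, all lower in KO) did not overlap, where 36.5% of all genes did not. Kcnc2, at 0.37 ± 0.13 (adjusted p = 0.0567), Nefh, at -0.26 ± 0.11 (0.0890), Syt2, at 0.53 ± 0.32 (0.238), and Erbb4, at 0.11 ± 0.24 (0.764), did not pass. DESeq2 called 4 of the 7 and 4164 genes in all, with Kcnc2 added at an adjusted p of 0.0352. Pvalb, which the choice of genes bears on through the unstressed WT libraries, was 1.12 ± 0.22 higher in KO (2.17-fold), and its groups did not overlap.

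Of the 7 genes 0, and 0.116% of all genes, were called without unstressed WT libraries 1 and 2. Kcnc1 then differed by -0.30 ± 0.11 (adjusted p = 0.260), Nxph1 by -0.07 ± 0.13 (0.847) and Lhx6 by 0.10 ± 0.12 (0.751), while Pvalb stood 0.69 ± 0.25 higher in KO and Nefh, at -0.25 ± 0.15, stayed where it was. Syt2 and Erbb4 turned to -0.21 ± 0.20 and -0.12 ± 0.32. Kcnc1 had an adjusted p of 0.0526 with library 2 alone left out and of 0.0292 with library 1 alone left out. Nxph1 and Lhx6 lost their call with any 1 of unstressed WT libraries 1 and 2 or of the 3 unstressed KO libraries left out, at adjusted p-values from 0.0746 to 0.183. With unstressed WT library 3 left out, the group was libraries 1 and 2 alone, which held the olfactory bulb markers. Then 5 of the 7 genes were called, and Lhx6 differed by 1.37 ± 0.11. Over all genes, this setting also gave the most calls of any single library left out, so nothing is read from that count. The part that olfactory bulb and meningeal markers have in these differences was not tested.

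Between stressed KO and stressed WT mice, a contrast that holds none of those libraries, 0 of the 7 genes tested were called, where 0.250% of all genes were. Syt2 had a log2 difference of -0.85 ± 0.32 (a level 0.554 times that of WT, unadjusted p = 0.0197, adjusted p = 0.285), Nefh one of -0.45 ± 0.11 (0.734 times, unadjusted p = 0.00126, adjusted p = 0.116) and Kcnc1 one of -0.24 ± 0.10 (0.846 times, adjusted p = 0.318). For these 3 of 7 the KO libraries lay below the WT libraries without overlap, and 22.1% of all genes did not overlap in this contrast. Pvalb was lower in KO by the same measure, -0.52 ± 0.22, also without overlap. The remaining 4 genes overlapped, with differences of -0.47 ± 0.25 for Erbb4, -0.07 ± 0.12 for Nxph1, -0.07 ± 0.27 for Lhx6 and 0.11 ± 0.13 for Kcnc2. The call depended on which libraries set the spread. With unstressed WT libraries 1 and 2 out of the fit, Syt2 differed by -0.85 ± 0.14 and was called (adjusted p = 0.0327), as it was with only the 2 stressed groups in the fit (adjusted p = 0.0346), and DESeq2 called Nefh (adjusted p = 0.0138). Oligodendrocyte markers were at 1940 to 3371 CPM in stressed WT against 1250 to 2798 CPM in stressed KO, and their part in these differences was not tested. Stressed KO library 1, with its striatal markers, was the lowest of stressed KO for Nefh, Kcnc1, Syt2 and Pvalb. Without it the differences were -0.36 ± 0.11 for Nefh (adjusted p = 0.236), -0.20 ± 0.11 for Kcnc1 (0.555), -0.83 ± 0.38 for Syt2 (0.435) and -0.38 ± 0.23 for Pvalb.

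**Figure D3:**
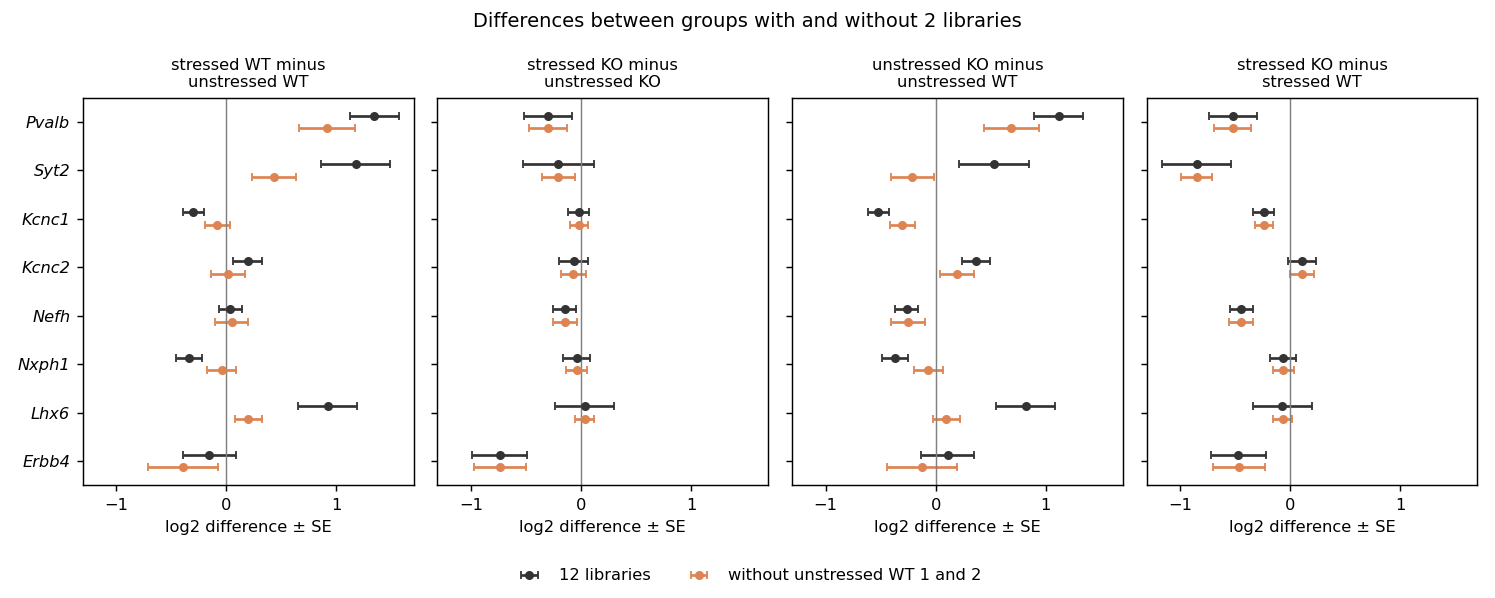
Log2 difference ± SE of each gene in the 4 comparisons, with all 12 libraries (black) and without unstressed WT libraries 1 and 2 (orange). In the 2 comparisons that use unstressed WT, Pvalb, Syt2, Kcnc1, Kcnc2, Nxph1 and Lhx6 lie nearer 0 without those libraries. For stress in WT, Lhx6 is at 0.20 in place of 0.92 and Syt2 at 0.44 in place of 1.17. For unstressed KO against unstressed WT, Syt2 is at -0.21 in place of 0.53. All 8 genes stay in place in the 2 comparisons that do not use unstressed WT. The SE of Syt2 is 0.14 in place of 0.32 for stressed KO against stressed WT.

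Set against other genes in the same library, Pvalb gave different pictures with different partners. Relative to the mean log2 level of Gad1, Gad2 and Slc32a1, which every GABA neuron uses to make and load its transmitter, Pvalb was at -5.85, -5.41 and -3.92 on the log2 scale in unstressed WT, against -3.38, -2.72 and -2.49 in WT with stress. In KO it was at -3.46, -2.62 and -3.27 without stress and -3.99, -3.23 and -3.09 with stress. The difference of the means, stressed minus unstressed, was 2.20 in WT and -0.32 in KO. Here and in the ratios below, the WT difference uses the contrast on which Pvalb was chosen, and it was not tested. Unstressed WT library 3, without the high olfactory bulb markers of libraries 1 and 2, was at -3.92 against a stressed WT mean of -2.86. Gad1 itself had its 2 highest values, 1356 and 1037 CPM, in libraries 1 and 2 of unstressed WT, against 315 to 537 CPM elsewhere.

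Relative to Lhx6, made by the parvalbumin and somatostatin cells of cortex, Pvalb was at 0.19, 0.18 and -0.39 in WT libraries without stress, against 0.11, 0.38 and 0.43 in those with it. KO libraries gave 0.13, 0.52 and -0.11 without stress, against -0.44, -0.11 and 0.13 with it. The groups overlapped, and the difference of the means was 0.31 in WT, where the SD of a group was 0.34 and 0.17, and -0.32 in KO. Syt2 relative to Lhx6 was at -1.12, -0.63 and -0.80 without stress and at -0.72, -0.57 and -0.44 with it in WT libraries, a difference of 0.27. In KO libraries it was at -1.28, -1.02 and -1.03 without stress and at -1.37, -1.34 and -1.31 with it, a difference of -0.23. Stressed KO was the lowest group by this ratio and stressed WT the highest, without overlap between these groups.

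Lhx6 kept a steady ratio to Sst, the neuropeptide gene of the other large cell class of the lineage. In WT the log2 ratio averaged -3.07 ± 0.05 (SD, n = 3) without stress and -3.13 ± 0.07 with it. In KO it averaged -3.13 ± 0.05 without stress and -3.22 ± 0.19 with it. Unstressed WT libraries 1 and 2, in which Sst was at 60.6 and 72.9 CPM against 153 to 217 CPM elsewhere, were thus low for both genes to a like extent. Sst was chosen as a reference after seeing the data, and it does not stand for all genes of somatostatin cells. Of 9 such genes, stressed against unstressed WT, 1 was called higher and 2 lower, with a median log2 difference of 0.013. Over all genes 21.9% were called in that contrast.

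**Figure D4:**
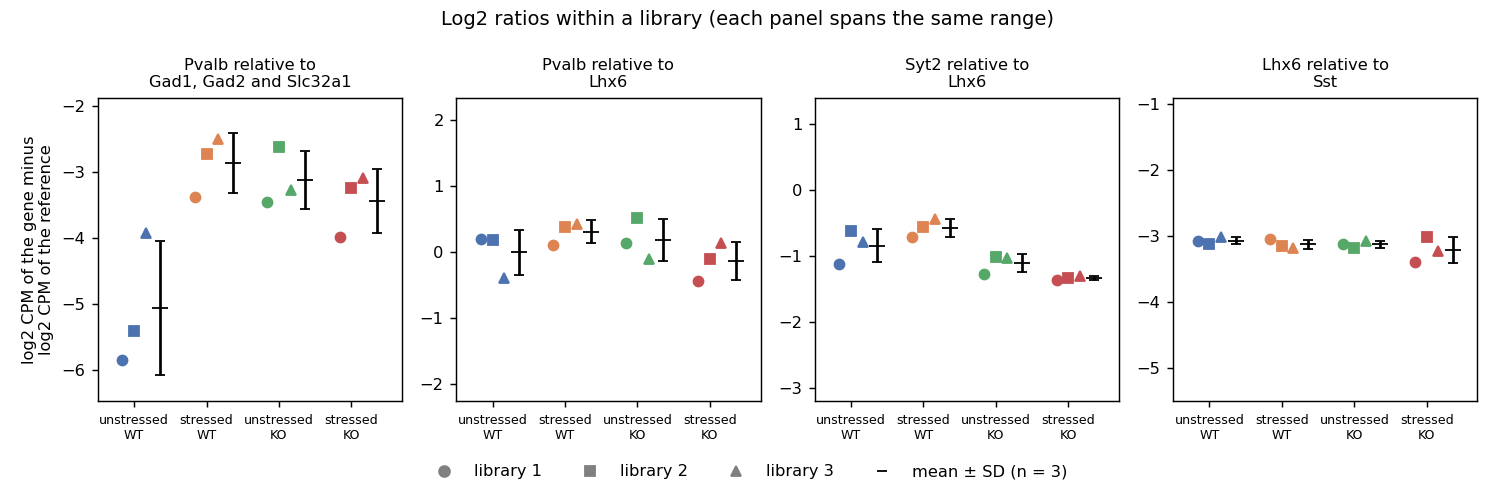
Log2 CPM of a gene minus log2 CPM of its reference in each library, with 1 point per library and the mean ± SD of each group of 3; every panel spans the same range on the vertical axis. Pvalb relative to Gad1, Gad2 and Slc32a1 is low in unstressed WT (mean -5.06), Pvalb and Syt2 relative to Lhx6 vary less, and Lhx6 relative to Sst is nearly level.

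Other genes of fast-spiking cells, 25 in a list of channels, synaptic proteins and markers, gave 0 calls in KO mice under stress, with edgeR as with DESeq2. Of the 25, 1 had an unadjusted p under 0.05, and their median log2 difference was -0.06, against -0.0042 over all genes. Between unstressed KO and unstressed WT, 4 rose and 1 fell, near the 23.2% of all genes called in either direction. Rbp4, a retinol carrier, was 1.21 ± 0.24 higher in KO (adjusted p = 0.0108) and Kcns3, a silent potassium channel subunit of these cells, 0.82 ± 0.18 higher (0.0142). Kcnab1, a potassium channel beta subunit, was 0.74 ± 0.20 higher (0.0232). In that contrast 0 of the 25 were called without unstressed WT libraries 1 and 2. Cplx1, a regulator of vesicle fusion with the highest level of the list, had a difference of -0.07 ± 0.11 and did not pass.

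Between stressed KO and stressed WT the median of these 25 genes was -0.22, against -0.0028 over all genes, and 0 were called by edgeR, with 11 at an unadjusted p under 0.05 and 4 called by DESeq2. Over all genes, 1973 had an unadjusted edgeR p under 0.05 and DESeq2 called 290. Without unstressed WT libraries 1 and 2 in the fit, 3 of the 25 were called, all lower in KO, where 0.530% of all genes were called. They were Scn1a, a sodium channel of fast-spiking cells, at -0.57 ± 0.10, Nefm, the middle neurofilament, at -0.53 ± 0.09 and Vamp1, a vesicle fusion protein, at -0.53 ± 0.10. These 3 were named after their values were seen. With all 12 libraries in the fit, their edgeR adjusted p-values were 0.116, 0.120 and 0.0790, and none passed. Nefm and Vamp1 are also in the neurofilament and presynaptic lists below. In stressed against unstressed WT, 10 of the 25 were higher and 1 was lower past the threshold, where 21.9% of all genes were called, with a median of 0.47, and 0 of 25 without unstressed WT libraries 1 and 2, with a median of 0.10.

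Lists of partners were read the same way. They hold partners or relatives of some of the 8 genes, or perineuronal net genes. Between stressed and unstressed KO edgeR called 0 of their 49 genes tested, with 2 at an unadjusted p under 0.05. DESeq2 called 1, in the perineuronal net list. Between unstressed KO and unstressed WT, the counts below stand beside the 23.2% of all genes called and a median over all genes of 0.0044, and none of them is read as particular to its list. Of 13 perineuronal net genes tested, which build the matrix around parvalbumin cells, Acan (-1.41 ± 0.33, adjusted p = 0.0164) and Vcan (-0.62 ± 0.15, 0.0189) fell in unstressed KO, with a list median of -0.19. Acan had 15.4 and 13.2 CPM in libraries 1 and 2 of unstressed WT, against 2.54 to 5.40 CPM elsewhere. Ncan and Bcan, the net genes with the highest levels, had differences of -0.26 ± 0.09 and -0.37 ± 0.13 and did not pass. Of the 6 neurexins and other neurexophilins beside Nxph1, Nxph2 (1.37 ± 0.41, adjusted p = 0.0341) and Nxph3 (1.70 ± 0.55, 0.0431) rose and Nxph4 (-1.96 ± 0.58, 0.0327) fell, while Nrxn2, among the highest in level, was at -0.22 ± 0.09 and did not pass, and the list median was -0.0079.

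Of 7 neuregulin and ErbB genes tested beside Erbb4, 3 fell in unstressed KO (list median -0.42), namely the ligand Nrg2 (-0.85 ± 0.19, adjusted p = 0.0142) and the receptors Erbb2 (-0.99 ± 0.30, 0.0343) and Erbb3 (-1.17 ± 0.35, 0.0351). Dlg4, the postsynaptic scaffold that binds Erbb4, and Nrg3 had the highest levels of the list, with differences of 0.16 ± 0.11 and 0.46 ± 0.17. Of the 4 other neurofilament and intermediate filament genes 0 were called (list median 0.26), with Nefl at 0.33 ± 0.16 and Nefm at 0.20 ± 0.13. Of 11 presynaptic sensor and vesicle genes (list median 0.10), Snap25, a fusion protein of all synapses, rose by 0.41 ± 0.10 (0.0176), and Syt1, the general calcium sensor, was at 0.01 ± 0.12. Of 8 calcium-binding genes related to Pvalb (list median 0.27), 2 rose, among them Calm2 (0.38 ± 0.10, 0.0228), and Calb2, which encodes calretinin, fell (-2.81 ± 0.73, 0.0220), with 307 and 317 CPM in libraries 1 and 2 of unstressed WT against 12.4 to 60.6 CPM elsewhere. In these 6 lists of partners 0 genes were called in this contrast without those libraries.

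Of 12 genes of all inhibitory neurons, 10 fell in unstressed KO against unstressed WT, where 23.2% of all genes were called, with a median log2 difference of -1.22. Gad1, the highest in level, was among them (-1.12 ± 0.30, adjusted p = 0.0247), and the 4 with the smallest p-values were the vesicular GABA transporter gene Slc32a1 (-0.95 ± 0.22, 0.0147) and the homeobox genes Dlx5 (-2.33 ± 0.54, 0.0158), Dlx2 (-2.10 ± 0.49, 0.0163) and Dlx6 (-1.88 ± 0.49, 0.0221). Of 6 genes tested from the medial ganglionic eminence lineage of Lhx6, Satb1, a chromatin organiser, rose by 0.93 ± 0.19 (0.0118) and Cux2, a homeobox gene, fell (-0.62 ± 0.18, 0.0331), with a list median of -0.0013. Cux2 is also in the list of cortical excitatory neuron markers, so its fall cannot be assigned to the lineage. The median of the 12 was -0.24 without unstressed WT libraries 1 and 2, with 0 called.

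The genes whose pattern was most like that of Pvalb were found by the root-mean-square difference of log2 CPM over the 12 libraries, each gene centred on its own mean. The nearest 8 had differences of 0.237 to 0.262, and 6 of them had gene names: Ttc9b, Cort, Mal2, Ccl27a, Rbp4 and Spink10. Ttc9b was at 56.3, 58.7 and 91.1 CPM in unstressed WT and at 96.3 to 130 CPM in the other 9 libraries. Cort, which encodes the neuropeptide cortistatin, was at 2.79, 2.85 and 5.10 CPM in unstressed WT and at 4.88 to 7.61 CPM in the other 9. Of the other listed genes Lhx6 had rank 26, with a difference of 0.289, and Syt2 rank 60, with 0.319, while Kcnc1 had rank 11703. Without unstressed WT libraries 1 and 2 only 1 of the nearest 8 was shared, Lhx6 and Syt2 had ranks 2091 and 3323, Nefh had rank 806 in place of 7864, and the nearest was Stac2, with a difference of 0.171.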

How the data were processed

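Total RNA of the medial prefrontal cortex was made into libraries with the strand-keeping NEBNext Ultra II Directional kit, per the labels' protocols. The submitters' processing notes name RSEM 1.3.1, STAR 2.7.9a and Trim Galore 0.6.6, as well as DESeq2 1.36.0, and the mm10 build. The strand setting, the annotation and any filter were not found in those notes or labels. The deposited values are estimated counts per gene, from RSEM by those notes, and were rounded to whole numbers here; of the 8 genes only Kcnc1 held a decimal, in 1 library.

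The 12 libraries entered 1 edgeR 4.0.16 quasi-likelihood fit of 4 group means (R 4.3.3, limma 3.58.1, 8 residual degrees of freedom), with TMM factors, filterByExpr (minimum count 10, minimum total 15) and Benjamini-Hochberg adjustment over 15199 genes; a gene was called at an adjusted p under 0.05. CPM used the TMM-scaled totals, and log2 levels a prior count of 2. The fit was tested on simulated data. Groups came from the titles. Gene positions and exon lengths came from the GENCODE annotation of GRCm38, which is mm10. No 2 libraries of a group agreed within sampling noise. Between groups of 3, an exact permutation test of 1 gene cannot go below 0.1, so the model across all genes was used.

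The members and gene lists were chosen with earlier results of these data known. Named are the 8 genes, from each list of partner genes the 2 with the highest mean CPM and up to 4 called per comparison by smallest p, from each marker list the 2 highest, and the 8 genes most like Pvalb, unnamed gene models only counted. Some genes that this rule names are not reported here. A p is given for stress in KO (8 genes) and for genotype (7 genes, without Pvalb), and none for the 8 genes in the contrasts used to choose Pvalb, where counts of calls under the alternatives only describe the fits. Scn1a, Nefm and Vamp1 were named after their values were seen. Alternatives were DESeq2 1.42.0 and its size factors, no filter, only the groups compared, the replicate number as a block, each library left out, and unstressed WT libraries 1 and 2 left out together.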

Additional observations from a re-analysis of the deposited data

How the results depend on the processing

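Of the tested log2 differences of the 8 genes under the alternatives, 228 kept direction and side of the threshold, 7 passed it newly, 18 no longer passed and 11 changed sign. Of those only described, 242 moved by at most the SD between libraries and 14 by more. Counts of listed genes for stress in WT and for the difference between responses are descriptions. The cause of a change was not tested. Genes called for the difference between stress responses numbered 198 with DESeq2's size factors, 143 with no filter and 1865 with DESeq2, and listed genes 1, 1 and 2. DESeq2 called 44 genes for stress in KO, and 290 genes and 1 listed gene for genotype with stress. With only the groups compared, 18 genes and 0 listed genes were called for genotype without stress, 1 gene and 0 listed genes for stress in WT, and 1 listed gene for genotype with stress. Without unstressed WT libraries 1 and 2, the counts were 18 and 0 for genotype without stress, 0 and 0 for stress in WT, and 82 and 1 for genotype with stress, and Syt2 and Erbb4 changed sign for genotype without stress, to -0.21 and -0.12. The stressed minus unstressed WT ratio with Lhx6 as reference was 0.31 for Pvalb and 0.27 for Syt2, and with Sst, a reference chosen after seeing the data, 0.26 and 0.22.

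With 1 library left out, genes called ranged from 234 to 5729 for genotype without stress (0 to 5 listed genes), 0 to 5635 for stress in WT (0 to 5), 0 to 3851 for the difference between responses (0 to 5), 1 to 5 for stress in KO and 19 to 26 for genotype with stress. The top of the first 3 ranges came without unstressed WT library 3. The log2 difference of Erbb4 for genotype without stress ran from -0.11 to 0.27 and that of Nxph1 for genotype with stress from -0.15 to 0.016. For stress in KO that of Kcnc1 ran from -0.081 to 0.030, Kcnc2 from -0.16 to 0.044, Lhx6 from -0.023 to 0.093 and Nxph1 from -0.089 to 0.0055.

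With the replicate number as a block, listed genes called were 0 for stress in KO, 3 for genotype without stress, 0 for genotype with stress, 3 for stress in WT and 0 for the difference between responses, and all genes 4, 3155, 27, 3007 and 0. For genotype without stress Nxph1 then lost its call (adjusted p = 0.0573) and Kcnc2 gained one (0.0318). Samples shared only a number, and not every same-numbered pair deviated together.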
